A study of Mus musculus with 3 samples.

Results

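H3K27ac, a histone mark laid down at active promoters and enhancers, was examined at 8 genes whose proteins write or remove histone acetylation or form a platform for its removal. These were the acetyltransferase genes Ep300, Crebbp, Kat2a and Kat2b, the deacetylase genes Hdac1, Hdac2 and Hdac3, and the corepressor gene Ncor1. They were fixed by name, and their regions by position: a peak counted when it lay inside a member gene, or within 50 kb of it with no other protein-coding gene nearer. Peaks of the 3 lists that touched or overlapped were merged into regions, and 16 of the 52938 regions of the series belonged to the 8 genes. They held 18 of the 41490 peaks in the wild-type list, 16 of the 31365 in the heterozygous list and 16 of the 34298 in the homozygous list. All peaks of such a region were counted, also a heterozygous peak of the Hdac3 region that lay in the neighbouring gene Rell2.

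The samples were clones of MIN6, an insulin-producing tumour line from mouse that stands in for pancreatic beta cells. The labels give 3 genotypes, wild type, heterozygous ARID1A KO and homozygous ARID1A KO; ARID1A belongs to the SWI/SNF complex, which remodels chromatin. The labels describe Cas9-expressing cells that received 1 Arid1a guide by lentivirus with blasticidin and puromycin selection, and clones sorted by PCR genotyping and ARID1A Western blotting; the wild-type clone is described as coming from the same procedure, although its peak names carry a tag (GAL4) that the labels do not explain. Each genotype had 1 library, so no test across samples was possible, and clone and genotype cannot be told apart. Where a value of each library follows without a name, the order is wild type, heterozygous, homozygous, and for ratios to wild type heterozygous, homozygous.

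Acetylation of H3K27 is written mainly by the paralogous proteins p300 (Ep300) and CBP (Crebbp), which are recruited to enhancers and promoters by transcription factors. GCN5 (Kat2a) and PCAF (Kat2b) are a second pair of paralogs, work within the SAGA and ATAC complexes and act mainly on H3K9. HDAC1 and HDAC2 remove acetyl groups within the NuRD, Sin3 and CoREST complexes, while HDAC3 works with the corepressor NCoR1. The acetyl marks are read by bromodomain and YEATS domain proteins, for which 15 genes were examined as a separate list.

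Bases upstream of the annotated gene are shown for a pair of genes whose start lay under a peak in all 3 libraries and a pair whose peaks began just past it. Coordinates are on GRCm38.p6, the assembly of mm10, sequences are credited to RefSeq and run 5′ to 3′ on the strand of the gene, and capitals mark a GC box, GGGCGG on either strand. Each run begins 250 bases before the RefSeq start and stops where the annotated gene begins, which at Kat2b and Ncor1 is well short of that start, so that a motif nearer to the start is not in the printed bases.

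Ep300, chr15:81585964-81586208, plus strand: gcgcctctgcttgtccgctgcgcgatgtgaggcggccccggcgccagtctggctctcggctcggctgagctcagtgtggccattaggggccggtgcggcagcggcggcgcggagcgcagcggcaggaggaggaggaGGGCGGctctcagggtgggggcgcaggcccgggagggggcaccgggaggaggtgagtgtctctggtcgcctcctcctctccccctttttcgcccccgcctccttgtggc
Ncor1, chr11:62457415-62457582, minus strand: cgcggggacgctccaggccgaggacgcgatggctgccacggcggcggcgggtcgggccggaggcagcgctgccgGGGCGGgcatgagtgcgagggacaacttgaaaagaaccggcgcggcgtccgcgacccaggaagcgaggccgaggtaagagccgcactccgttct
Kat2a, chr11:100712486-100712717, minus strand: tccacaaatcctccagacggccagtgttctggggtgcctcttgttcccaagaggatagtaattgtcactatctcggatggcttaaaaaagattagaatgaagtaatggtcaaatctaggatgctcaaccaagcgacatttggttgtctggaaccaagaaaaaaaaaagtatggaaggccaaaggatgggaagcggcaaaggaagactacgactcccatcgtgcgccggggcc
Kat2b, chr17:53566721-53566773, plus strand: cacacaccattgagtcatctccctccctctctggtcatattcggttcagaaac

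RefSeq starts were found for 6 of the 8 genes, 8 in all, and not for Hdac1 and Hdac3. The window of 250 bases before the start was wholly under peaks in all 3 libraries at Ep300, Crebbp, Hdac2 and the outer start of Ncor1. These 4 windows had a GC content of 73.2%, 84%, 68.8% and 73.6% and held 25, 44, 27 and 34 CpG dinucleotides, against medians of 52.4% and 6 CpG over all 32851 windows. No base of the window was under a peak in any library at Kat2a, with 48.8% GC and 11 CpG, or at the outer start of Kat2b, with 40.8% GC and 6 CpG. The same held for the inner starts of Kat2b, at 53584126, with 48.4% GC, and of Ncor1, at 62438515, with 36.8% GC. The windows thus fell into a GC-rich group under peaks and a group without, as a description of 8 windows. A GC box stood in 4 of the 8, against 32.7% of all windows, and these were the 4 under peaks. A CCAAT box (CCAAT, either strand) stood in 1, at Kat2b, against 33.8%. The ETS motif CCGGAAG stood in 1, at Ncor1, against 6.91%, and the cAMP response element TGACGTCA in 0, against 1.55%.

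All 8 genes had at least 1 region with a peak in each library, and 13 of the 16 regions had a peak in all 3 (81.2%, Wilson 95% interval 57.0 to 93.4%, counting error only). Over the 45951 regions of the genome that lay within 50 kb of a protein-coding gene the share was 39.7%. It was 87.1% for those that touched a RefSeq start and 31.2% for the rest, so that the share differed by place. Of all 21887 protein-coding genes, 54.0% had a region in every library. Of the 8 genes, Kat2b had 6 regions, Ep300, Kat2a and Hdac1 had 2 each, and Crebbp, Hdac2, Hdac3 and Ncor1 had 1 each. The median of all genes with a region was 2, and that of genes of 100 kb or longer was 5. Crebbp and Ncor1, at 132.6 and 141.8 kb the longest of the 8, thus had a single region at the gene's start end. By position, regions more than 2 kb from the start, or from the gene end that holds the peak, were found only at Kat2a and Kat2b. The map of peaks by gene therefore shows the other genes within 2 kb only.

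**Figure D1:**
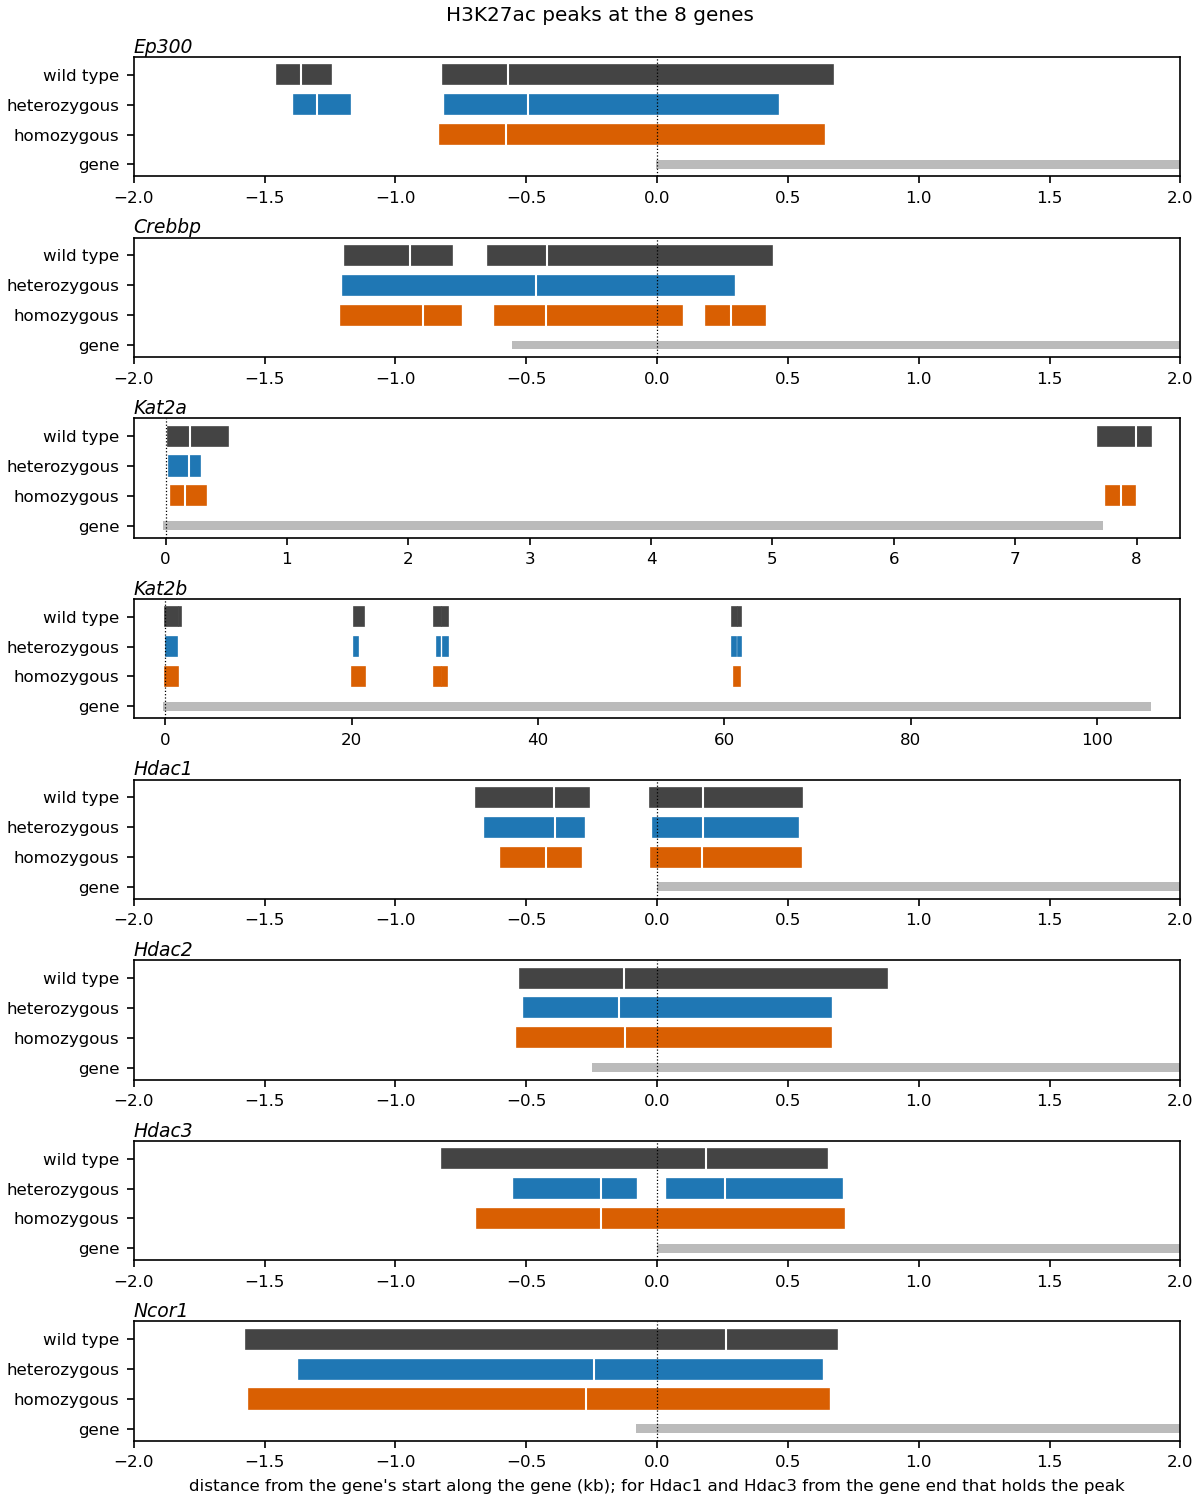
Peaks of the 3 libraries (dark, wild type; blue, heterozygous; orange, homozygous) at each of the 8 genes, against distance from the gene's RefSeq start in kb, or from the gene end that holds the peak for Hdac1 and Hdac3; grey bars are the annotated genes, cut off at 2 kb except for Kat2a and Kat2b, and white lines mark summits where the scale allows. Positions recur across libraries, and 3 of 16 regions lack a peak in at least 1 library.

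In the lists as deposited, no region of the 8 genes had a peak in a knockout and none in wild type. With the lists shortened to equal length, each knockout had 1 such region. Wild type then had 5 regions at Kat2b in place of 6, while each knockout kept 5. As deposited, the homozygous library against wild type had 0 of 16 such regions (Wilson 95% interval 0 to 19.4%), where 16.7% of regions genome-wide had a peak in the homozygous library only. A wild-type peak was missing in 2 of 16 (12.5%, 3.50 to 36.0%), where 30.7% were missing genome-wide. In the heterozygous library against wild type the counts were again 0 and 2 of 16, against 12.1% and 35.3% genome-wide. Between the homozygous and heterozygous libraries 1 of 15 regions had a peak in the homozygous library only, against 27.3%, and 1 in the heterozygous only, against 17.8%. The wild-type list was the longest, and both knockouts were compared with it, so that the 2 comparisons share a library.

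The 3 regions that differed in presence were small. The region upstream of Ep300, on chromosome 15 at 81584762 to 81585039, was 205 bp wide in wild type and 215 bp in the heterozygous library, and was missing in the homozygous one. It lay 345 bp from the region over the Ep300 start. The region inside Kat2b on chromosome 17 at 53568439 to 53568720 was found in wild type only and lay 85 bp from the region at the gene's start. The region at the downstream end of Kat2a, on chromosome 11 at 100704349 to 100704785, was 437 bp wide in wild type and 240 bp in the homozygous clone, and was missing in the heterozygous one. It overlapped the end of the gene in wild type, while the homozygous peak lay outside the gene, 31 bp from it. Dhx58, which encodes an RNA sensor of antiviral defence, lies 475 bp from Kat2a. The region was given to Kat2a by position alone. By −log10 q these 3 peaks stood at percentiles 39.2, 37.3 and 52.0 of the wild-type list, so that 2 of them were below its median. With peaks within 1 kb of each other merged, 0 regions of the 8 genes differed in presence in any comparison.

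Heights were described by the number of reads at the summit, solved from the fold enrichment and −log10 p that the authors deposited for each peak. For comparison between libraries these reads were scaled by the median ratio over the 19504 regions of the genome with a peak in all 3 libraries, which was 0.741 for heterozygous over wild type and 1.01 for homozygous over wild type. A change common to most regions would be hidden by this scaling. Intervals on ratios are exact and cover counting error only.

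Ep300, which encodes p300 and lies on chromosome 15 at 81586209 to 81652077 (gene 328572), had its main region over the start. The peak was 1492 bp wide in wild type, 1273 bp in the heterozygous clone and 1468 bp in the homozygous clone. Relative to the start, with upstream positions negative, its summit lay at −569, −492 and −577 bp and held 203, 155 and 243 reads. In each library this was the highest summit among the regions of the 8 genes. Scaled, the heterozygous summit stood at 1.03 times wild type (0.831 to 1.28) and the homozygous at 1.18 times (0.977 to 1.43), and both intervals include equality.

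Crebbp, which encodes CBP and lies on chromosome 16 at 4081334 to 4213957 (gene 12914), had 1 region, at 4212964 to 4214611. It was 1 peak of 1497 bp in the heterozygous library, 2 peaks of 1087 and 413 bp in wild type and 3 peaks of 228, 717 and 459 bp in the homozygous library. The bases under peaks were nearly alike, with 1500, 1497 and 1404 bp in wild type, heterozygous and homozygous, so that the libraries differed in where the region was interrupted. The gap upstream of the start was 135 bp in wild type and 127 bp in the homozygous clone. The highest summit lay at −420, −464 and −426 bp from the RefSeq start, with 119, 102 and 156 reads. The scaled ratio was 1.16 (0.879 to 1.52) in the heterozygous clone and 1.29 (1.01 to 1.66) in the homozygous clone, and 78.6% of all shared regions had a ratio at or below the latter. At Crebbp the highest summits lay inside the annotated gene, and at Ep300 outside it. Both paralogs had their summit upstream of the RefSeq start, where the highest summit of the region is taken. The direction at Crebbp in the heterozygous clone rests on that choice: with the summit reads of all its peaks summed, an alternative chosen after seeing the data, the log2 ratio came to −0.46 in place of 0.21. Such a sum rises with the number of peaks, here 1 in the heterozygous library and 2 in wild type. The homozygous summit nearest to the Crebbp start was that of the smallest peak, at 284 bp past it.

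Kat2a encodes GCN5 and lies on chromosome 11 at 100704746 to 100712485 (gene 14534). Its start region was the narrowest of the 8 genes in each library, at 499, 256 and 285 bp. All 3 peaks began past the start, by 20, 30 and 49 bp, and their summits lay 201, 193 and 162 bp past it. Summit reads were 57, 33 and 26. Scaled, the homozygous summit was at 0.451 times wild type (0.272 to 0.728) and the heterozygous at 0.782 times (0.493 to 1.22), an interval that includes equality. At the downstream region the reads were 50 in wild type and 23 in the homozygous clone, a scaled ratio of 0.454 (0.265 to 0.759). These were the only 2 of 14 shared regions of the 8 genes (14.3%) with reads at least 2-fold lower in the homozygous library than in wild type, where 8.31% of all shared regions were. None of the 14 was 2-fold higher (Wilson upper bound 21.5%), where 5.28% were.

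Reads near Kat2a were low in the homozygous library beyond the gene itself. Of 61 other shared regions within 500 kb of Kat2a, 48 had a scaled ratio below 1 in the homozygous library, and their median was 0.743. The part of this surrounding difference in the values at Kat2a was not tested. The local background solved with the reads was also lower, at 5.02, 2.56 and 2.10 reads at the start region. The authors' folds there were closer together, at 9.63, 9.55 and 8.71. At the downstream region the background was 8.38 in wild type and 4.46 in the homozygous clone, with folds of 5.44 and 4.40. How much of the ratios at Kat2a goes with this background was not tested. With depth taken from the lowest background of each library, an alternative chosen after seeing the data, the 2 ratios at Kat2a came to −0.81 and −0.80 on the log2 scale in place of −1.15 and −1.14, and neither passed 2-fold.

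Kat2b encodes PCAF and lies on chromosome 17 at 53566774 to 53672721 (gene 18519). It was the 1 member with regions deep inside the gene away from both ends, and it held the largest differences of the 8 genes, all between the heterozygous library and the others. Its regions are numbered 1 to 6 from the start. The table of genes gives no exons, so that whether a region inside the gene is exonic or intronic is not known here.

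Region 1, at 53566987 to 53568353, began 16 bp past the outer RefSeq start in wild type, 59 bp in the heterozygous clone and 18 bp in the homozygous clone. It was 1347, 1243 and 1365 bp wide. The summit lay 860 and 855 bp past the start in wild type and homozygous, and 352 bp past it in the heterozygous library. Reads were 96 in wild type, 43 in the heterozygous clone and 113 in the homozygous clone, so that the heterozygous one stood apart. Its scaled ratio to wild type was 0.605 (0.412 to 0.875), while that of the homozygous library was 1.16 (0.878 to 1.54).

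Region 3, at 53586985 to 53588390, began 20265 bp past the outer RefSeq start in wild type and 3110 bp past the inner one. Its peak was 1095 bp wide in wild type, 410 bp in the heterozygous clone and 1406 bp in the homozygous clone, with 104, 24 and 133 reads. The heterozygous peak covered only part of the region. The scaled ratio was 0.312 (0.191 to 0.489) for heterozygous over wild type and 4.05 (2.61 to 6.55) for homozygous over heterozygous. Only 0.865% of all shared regions had a heterozygous to wild-type ratio as low.

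Region 4, at 53595791 to 53596526, had 125 reads in wild type, 21 in the heterozygous clone and 98 in the homozygous clone, and widths of 695, 376 and 736 bp. Here the heterozygous ratio to wild type was the lowest of the 8 genes, at 0.227 (0.136 to 0.362), and 0.213% of all shared regions were as low. The homozygous library stood 3.41 times above the heterozygous one (2.12 to 5.76). Region 5, 192 bp further on at 53596719 to 53597352, had 86, 26 and 56 reads and widths of 630, 507 and 451 bp. The heterozygous ratio was 0.408 (0.253 to 0.639) and the homozygous one 0.643 (0.451 to 0.911), so that at this region both knockouts were below wild type.

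Region 6, at 53627782 to 53628748, began 60811 bp past the start in wild type and did not share this. It had 21, 21 and 29 reads in wild type, heterozygous and homozygous, and a heterozygous ratio of 1.35 (0.702 to 2.60). It was 2 peaks of 539 and 350 bp in wild type, 2 of 433 and 230 bp in the heterozygous library and 1 of 706 bp in the homozygous one. The low heterozygous reads at Kat2b were thus in regions 1, 3, 4 and 5, the last of which ended 30381 bp past the start in wild type.

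Kat2b regions 3, 4 and 5 were the only 3 of 14 shared regions of the 8 genes (21.4%, interval 7.57 to 47.6%) with reads at least 2-fold lower in the heterozygous library than in wild type, where 5.22% of all shared regions were. They are 3 regions of 1 gene and not independent. None of the 14 was 2-fold higher, where 6.24% were. Between the homozygous and the heterozygous library, 2 of 13 shared regions were at least 2-fold higher, Kat2b regions 3 and 4, where 4.46% were, and 0 were 2-fold lower, where 7.76% were. The median over the 5 shared regions of Kat2b was a ratio of 0.408 for heterozygous over wild type. Of 579 genes with 5 or more shared regions, 3 including Kat2b had a median at or below it. Kat2b was chosen for this ranking after its values were seen.

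The local background recovered at Kat2b moved with the reads. At region 3 it was 10.9 reads in wild type, 3.28 in the heterozygous clone and 14.9 in the homozygous clone, at region 4 it was 14.7, 3.86 and 12.2, and at region 5 14.6, 3.90 and 12.3. At region 6 the backgrounds were 2.72 to 3.18 in every library. Because the fold enrichment is taken over this background, the authors' folds differed less than the reads. At region 3 they were 8.79 in the wild-type list and 5.84 in the heterozygous list, and at region 4 8.01 and 4.53. The folds at region 5 were nearly alike, at 5.58 and 5.51. Only 6 other shared regions lay within 500 kb of Kat2b. Their median heterozygous ratio was 0.858, and 4 of the 6 were below 1, so that the median of the surrounding regions was above that of the gene. The part of the local background in the ratios was not tested.

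**Figure D2:**
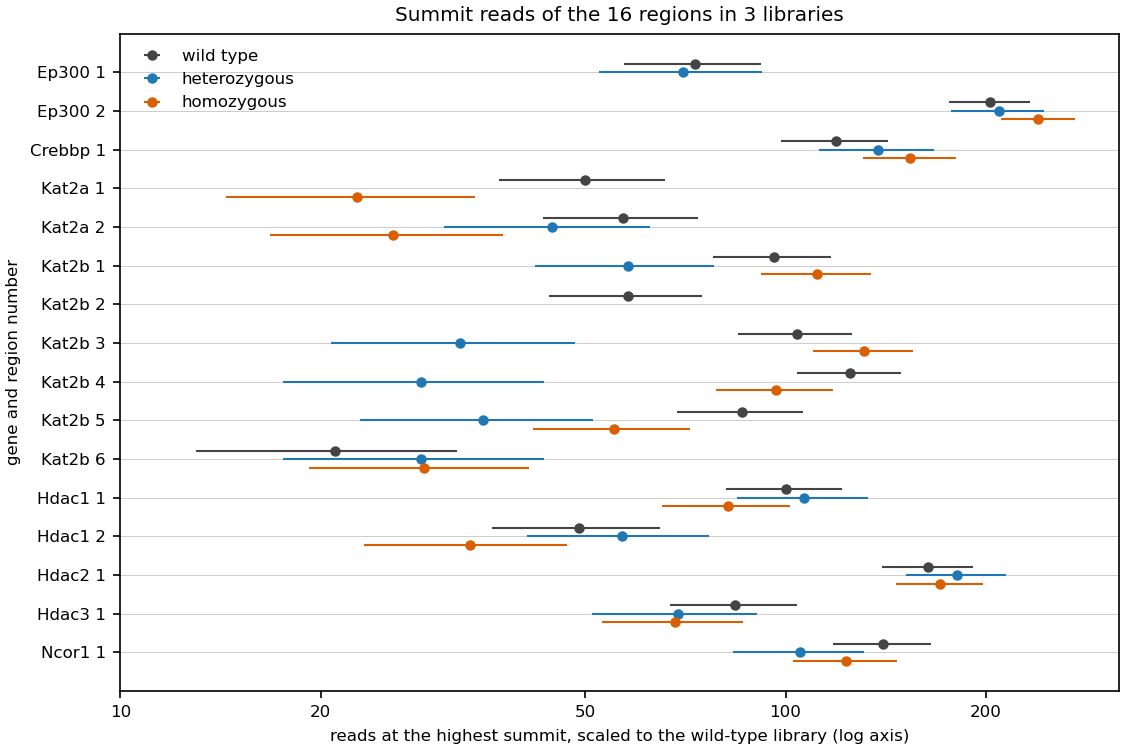
Reads at the highest summit of each region, scaled to the wild-type library, on a log axis; points are libraries (dark, wild type; blue, heterozygous; orange, homozygous), bars are 95% Poisson intervals for counting error, and a missing point means no peak. Kat2b regions 3 to 5 hold the lowest heterozygous points relative to wild type, and both Kat2a regions lie lower in the homozygous library.

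Hdac1, on chromosome 4 at 129516104 to 129542646 (gene 433759), encodes a deacetylase of the NuRD, Sin3 and CoREST complexes. It had a region over its high-coordinate end, and another that began 231 bp beyond the first and 261 bp outside the gene. The region over the end had peaks of 583, 556 and 573 bp in wild type, heterozygous and homozygous, whose summits lay within 5 bp of each other, 175, 177 and 172 bp inside the gene. Reads were 100, 79 and 83, and the scaled ratios to wild type were 1.07 (0.784 to 1.45) and 0.820 (0.605 to 1.11). The outer region was narrower, at 431, 380 and 307 bp, with 49, 42 and 34 reads and ratios of 1.16 (0.748 to 1.78) and 0.685 (0.429 to 1.08). All 4 intervals include equality. The gap between these regions was present in all 3 libraries.

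Hdac2, on chromosome 10 at 36974297 to 37001889 (gene 15182), encodes the close paralog of HDAC1. A single peak spanned its start, 1404 bp wide in wild type, 1177 bp in the heterozygous clone and 1200 bp in the homozygous clone. The summit lay 127, 146 and 123 bp upstream of the RefSeq start but inside the annotated gene, with 164, 134 and 173 reads. Scaled ratios were 1.10 (0.871 to 1.39) and 1.04 (0.837 to 1.30). By −log10 q these peaks stood at percentiles 97.9, 98.0 and 97.6 of their own lists. Hdac2 thus ranked near the top of each list, and so did the start region of Ep300, at percentiles 98.2, 96.7 and 98.1.

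Hdac3, on chromosome 18 at 37936971 to 37955015 (gene 15183), encodes the catalytic partner of the NCoR1 corepressor. Its region at 37954299 to 37955837 covered the high-coordinate end and reached into Rell2, which lies 39 bp away, so that it cannot be given to 1 of these genes. It was 1 peak of 1472 bp in wild type and 1 of 1406 bp in the homozygous library, and 2 peaks of 669 and 465 bp in the heterozygous library. The gap of 119 bp between the latter held the end of the gene, and the heterozygous peak beyond it lay in Rell2. Highest summit reads were 84, 51 and 69. The wild-type summit, at 37954828, lay inside Hdac3. The heterozygous and homozygous summits, at 37955229 and 37955231, lay past the end of Hdac3, on the side of Rell2. The heterozygous one was that of the peak in Rell2. Both ratios to wild type thus compare summits at different places. They were 0.820 (0.567 to 1.17) and 0.811 (0.581 to 1.13), and both intervals include equality. With the summit reads of both heterozygous peaks summed, the heterozygous log2 ratio turned from −0.29 to 0.68.

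Ncor1, on chromosome 11 at 62315663 to 62457414 (gene 20185), encodes the corepressor that activates HDAC3. Its region at 62456646 to 62458902 was the widest of the 8 genes, with 1 peak of 2257 bp in wild type, 1998 bp in the heterozygous clone and 2215 bp in the homozygous clone. It also touched Pigl, an enzyme gene of GPI anchor synthesis, and was equally near to it. The highest point lay 264 bp past the outer start of Ncor1 in wild type, but at −243 and −271 bp, on the side of Pigl, in the knockouts. Reads were 140, 78 and 125. The heterozygous ratio was 0.752 (0.563 to 0.999) and the homozygous one 0.882 (0.687 to 1.13). The 20 other shared regions within 500 kb had a median heterozygous ratio of 0.765, close to that of Ncor1. At the inner start of Ncor1 the nearest peak was 18131, 18188 and 18162 bp away.

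**Figure D3:**
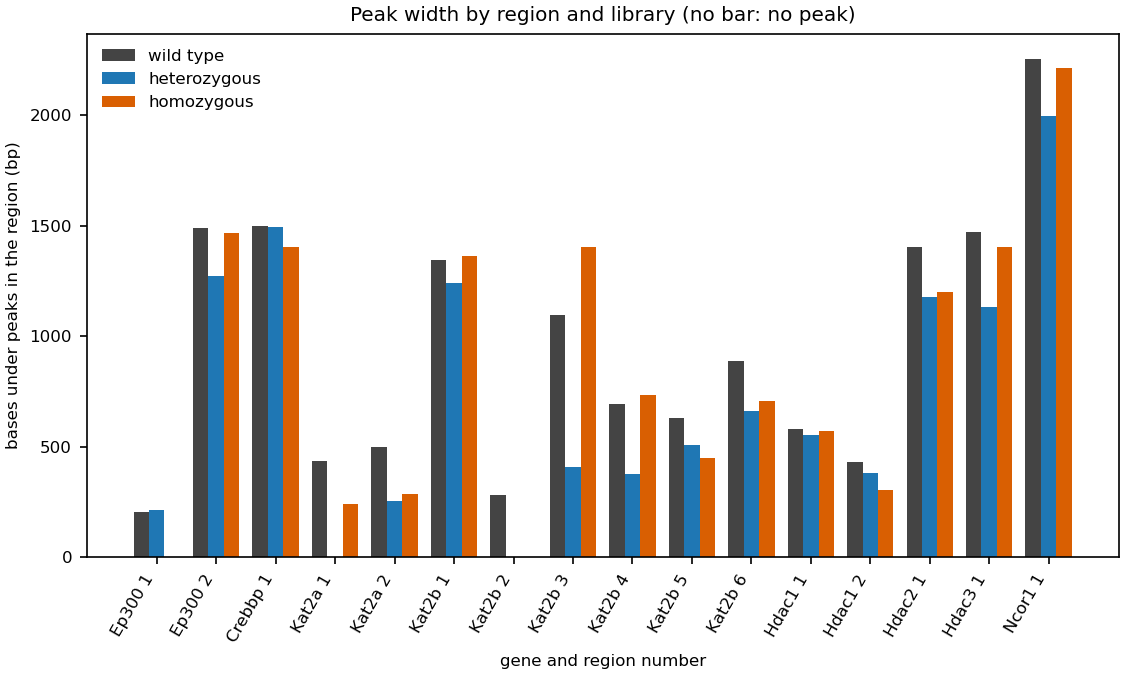
Bases under peaks in each region, in bp from 0, by library (dark, wild type; blue, heterozygous; orange, homozygous); no bar means no peak. The heterozygous bar is the shortest of the libraries at most regions, among them Kat2b regions 3 and 4 (410 and 376 bp). The Ncor1 region is the widest in every library.

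The shared regions whose widths differed by 1.5-fold or more were all at Kat2a and Kat2b. In the heterozygous library 3 of 14 shared regions differed from wild type by 1.5-fold or more, the Kat2a start and Kat2b regions 3 and 4, all narrower, with ratios of 0.513, 0.374 and 0.541, where 23.8% of all shared regions differed by as much. The share of the 8 genes, 21.4%, was near that background. In the homozygous library 2 of 14 did, both at Kat2a with ratios of 0.571 and 0.549, where 20.7% did. Between the homozygous and heterozygous libraries 2 of 13 did, Kat2b regions 3 and 4 with ratios of 3.43 and 1.96, where 21.3% did. The median width ratio to wild type was 0.846 in the heterozygous clone and 0.946 in the homozygous clone, beside 0.880 and 0.953 over all shared regions. In total the 8 genes had 15218 bp under peaks in wild type, 11685 bp in the heterozygous clone and 13762 bp in the homozygous clone, and the heterozygous list was also the shortest of the 3.

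**Figure D4:**
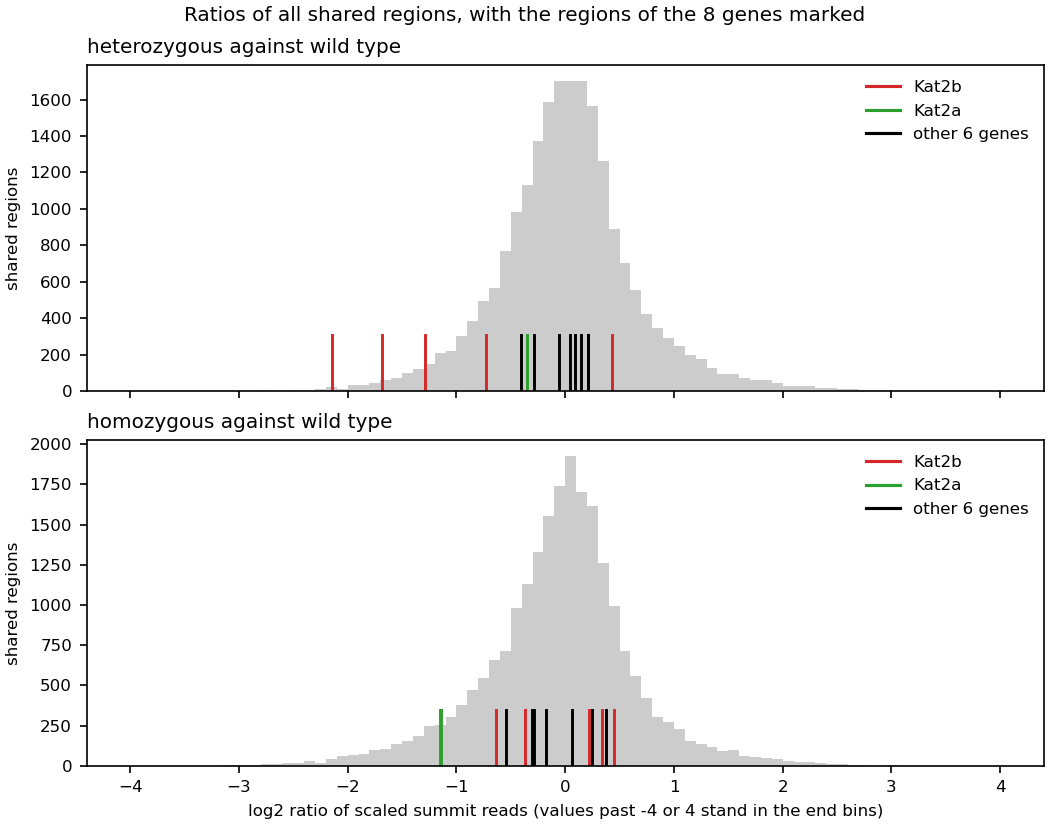
Histograms (grey) of the log2 ratio of scaled summit reads over all shared regions within 50 kb of a gene, for heterozygous and homozygous over wild type, with a line for each shared region of the 8 genes. In the upper panel 3 Kat2b lines lie below −1 and 1 above 0; in the lower panel both Kat2a lines lie below −1 and the rest between −0.64 and 0.45.

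Without regard to size, 8 of 14 shared regions of the 8 genes were below wild type in scaled reads in the heterozygous library and 8 in the homozygous one, where 49.1% and 50.9% of all shared regions were. With depth taken from the lowest background the counts were 10 and 5 of 14. Median log2 ratios were −0.17 and −0.23, beside 0.01 and −0.02 over all shared regions. In the ratio histogram with the 8 genes marked, the 3 lowest heterozygous values are at Kat2b and the 2 lowest homozygous ones at Kat2a.

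Other genes of the acetylation machinery were counted from lists written with earlier results of these data known. The 14 other writer genes, such as Kat5, Kat6a and the SAGA subunit gene Tada2b, had 36, 28 and 28 regions. Against wild type, 2 regions were found only in the homozygous library and 10 only in wild type, and the same numbers held for the heterozygous library, where 16.7% and 30.7% of regions genome-wide did so for the homozygous library and 12.1% and 35.3% for the heterozygous. The 13 other eraser genes, further deacetylases such as Hdac8 and Hdac11 and sirtuins, had 38, 31 and 41 regions, and were the 1 list with more regions in the homozygous library than in wild type. There 12 were found only in the homozygous library, 9 only in wild type and 29 in both, beside the genome-wide 16.7% and 30.7%. By gene, Hdac7, Hdac4 and Sirt2 had more regions in the homozygous library than in wild type, 3 of the 13 had fewer and 7 had as many. Against wild type, 4 eraser regions were found only in the heterozygous library and 11 only in wild type. The 17 other corepressor subunit genes had 48, 44 and 45 regions, and the 15 reader genes 35, 28 and 27. All genes of the first 3 lists had a region in every library, and so did 14 of the 15 readers.

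Named by the size of the difference in regions, the eraser gene Hdac7, a class IIa deacetylase, had 3, 3 and 7 regions. The class IIa gene Hdac4 had 10, 10 and 13. Kat6b, an acetyltransferase gene, had 7, 3 and 4, and the reader genes Brd1, whose protein is a bromodomain scaffold of acetyltransferase complexes, and Mllt3, a YEATS domain protein, had 4, 1 and 3 and 4, 1 and 4. Hdac7 and Hdac4 were named for their difference in the homozygous library, and Kat6b, Brd1 and Mllt3 for that in the heterozygous one. The homozygous library also had fewer regions than wild type at Kat6b, 4 against 7, and at Brd1, 3 against 4.

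Scaled reads of the shared regions of these lists went both ways, and the scaling sets the median of all shared regions near 0. Median log2 ratios in the heterozygous library were 0.01 for writers, −0.04 for erasers, −0.09 for corepressor subunits and 0.24 for readers. In the homozygous library they were −0.10, −0.12, −0.04 and 0.03. Of 26 shared writer regions 2 were at least 2-fold lower in the heterozygous library and 0 in the homozygous one. Of the shared eraser regions 2 of 27 and 4 of 29 were, of the corepressor regions 2 of 38 and 4 of 37, and of the reader regions 0 of 23 and 2 of 23, where 5.22% and 8.31% of all shared regions were. At Hdac7, 2 regions were lower in both knockouts, at 97811799 to 97812333 on chromosome 15 with 62, 20 and 31 reads in wild type, heterozygous and homozygous, and at 97812514 to 97813426 with 55, 15 and 18. The start region of Hdac7 had 60, 44 and 56 reads, and the 4 regions found only in the homozygous library had 25 to 32. Those at 97824369 to 97824640, 97824780 to 97825129 and 97825272 to 97825548 lay close together. Peaks within 1 kb were merged only for the 8 genes, so how far the count of 41 eraser regions rests on such splitting was not tested.

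**Figure D5:**
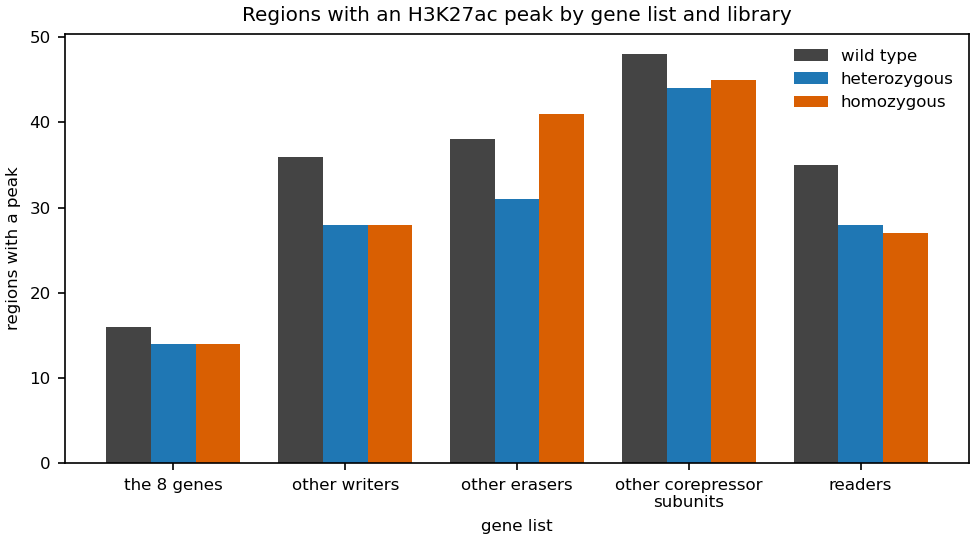
Number of regions with a peak, from 0, for the 8 genes and for the 4 lists of other writers, other erasers, other corepressor subunits and readers, by library (dark, wild type; blue, heterozygous; orange, homozygous). The erasers are the 1 list whose homozygous bar, 41 regions, is above wild type, at 38. Of the 13 eraser genes, 3 had more regions in the homozygous library than in wild type and 3 had fewer.

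The whole lists set the scale of these comparisons. Wild type covered 25.1 Mb, the heterozygous list 17.5 Mb and the homozygous list 20.2 Mb. Median summit reads were 49, 47 and 54, and the lowest backgrounds 2.17, 1.73 and 1.73 reads. All 10 beta cell marker genes, among them Ins1, Ins2 and Pdx1, had a region in every library, 41, 30 and 37 regions in all. Their shared regions were low in the heterozygous library, with a median log2 ratio to wild type of −0.52. Of these, 5 of 23 were at least 2-fold lower, where 5.22% of all shared regions were. Among the 8 genes 3 of 14 were, all at Kat2b, and the median was −0.17. In the homozygous library the median of the beta cell genes was −0.14, with 3 of 30 at least 2-fold lower, where 8.31% of all shared regions were. The heterozygous median was 1.65 over 5 shared regions of endothelial genes and 1.92 at 1 of duct genes. The part of these differences in the values at Kat2b was not tested. Of 3 acinar genes 0 had one in any library, and of the immune genes Ptprc, Cd79a and Cd68, 2, 1 and 0 had one in wild type, heterozygous and homozygous. Alpha cell genes numbered 2, 2 and 1 of 4, delta genes 1, 1 and 0 of 2, duct genes 1, 2 and 1 of 3, endothelial genes 1 of 2 in each, and mesenchymal genes 1, 0 and 1 of 2.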

How the data were processed

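H3K27ac ChIP-seq peaks of 3 MIN6 clones, 1 library per genotype, were used as deposited on mm10. Per the submitters' processing notes, reads were demultiplexed with bcl2fastq and peaks called with MACS2. The aligner, its settings, the control and the threshold were not given in the sources used here. The authors deposited for each peak a score, a fold enrichment, −log10 p, −log10 q and a summit offset; the score was not used. All values of a peak are the authors' and relate to its own library.

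Summit reads and local background were solved from the deposited fold, taken as reads plus 1 over background plus 1, and the deposited −log10 p, taken as a Poisson tail, to within 0.001. This succeeded for all peaks but 1, which was in the heterozygous list (31364 of 31365 solved). Library read totals were not used here, so that depth rests on the recovered reads, whose median at the summit was 49, 47 and 54 in wild type, heterozygous and homozygous. Intervals on reads are exact Poisson ones and, like all intervals here, cover counting error only. Alternatives were lists of equal length, a stricter −log10 q, peaks within 1 kb merged, a 10 kb window, single nearest genes, other measures of width and summit, and, added after seeing the data, other scalings and summed reads.

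Peaks that overlapped by 1 bp or touched were merged. Distance to a gene was 0 on overlap, genes were the 21887 protein-coding genes of RefSeq on GRCm38.p6, and ties stayed with the member. Start sites came from the RefSeq promoter table. A region was compared in height by its highest summit and in width by all its bases under peaks. The thresholds were 1.5-fold for width and 2-fold for reads. Shares have Wilson 95% intervals and ratios exact binomial ones. All 8 members are named; of the other listed genes, the 3 with the largest difference in number of regions per knockout against wild type, ties by symbol. The values of 1 gene named by this rule are not reported here. Members, lists and rules were chosen with earlier results of these data known, and the scaling of reads after seeing the data. Python 3.11.15, numpy 2.4.6, pandas 2.3.3, scipy 1.17.1 and matplotlib 3.10.9 were used, and the steps were tested on simulated data.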

Additional observations from a re-analysis of the deposited data

How the results depend on the processing

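Each alternative changed 1 choice. With only peaks at or above the median −log10 q of their list, 7 heterozygous and 9 homozygous regions of the 8 genes had a peak, in place of 14 and 14, and the regions missing against wild type came to 6 for heterozygous and 4 for homozygous, in place of 2 and 2. The homozygous library then had 3 regions that the heterozygous lacked, in place of 1. With peaks within 1 kb merged, 0 regions of the 8 genes were gained or lost in any comparison. That merging was not done for the other lists. With lists of equal length by −log10 q, 1 region was gained by each knockout against wild type, 1 for homozygous and 1 for heterozygous, in place of 0. The knockouts kept 14 regions each, while wild type went from 16 to 15 by a region at Kat2b. Of the other lists, the writers then had 1 region gained and 5 lost in the homozygous library, in place of 2 and 10, and 5 lost in the heterozygous. Lost corepressor regions came to 6 and 5, in place of 11 and 10, and lost reader regions to 7 and 7, in place of 12 and 12. A 10 kb window and the single nearest gene left all counts over the 8 genes within 1.5 times. Under the latter Ncor1 had 0 regions. Reads scaled by the lowest background, an alternative chosen after seeing the data, gave 0 regions 2-fold lower in the homozygous library, in place of 2, and left the 3 at Kat2b in the heterozygous. That scaling moved all log2 ratios to wild type by 0.34 for homozygous and by −0.11 for heterozygous, and it turned the direction at Ep300 region 2 and Hdac1 region 1 in the heterozygous library (−0.06 and −0.02), and at Hdac1 region 1, Hdac3 and Ncor1 in the homozygous one (0.06, 0.04 and 0.16). With the reads of all peaks of a region summed, also chosen after seeing the data, the log2 ratio to wild type turned at Crebbp and Hdac3 in the heterozygous library (−0.46 and 0.68) and at Kat2b region 6 in the homozygous one (−0.45). Such sums rise with the number of peaks in the region, which differed from wild type in each of these cases. No paired analysis was possible because each genotype had 1 library. The depth of each library was known only through the recovered reads.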
